A study of Mus musculus with 18 samples.

Results

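The 38 genes described here encode the heat shock proteins of the cytosol and mitochondria and the folding and degradation machinery of the endoplasmic reticulum (ER). They were taken by symbol from the 21380 gene identifiers of the deposited table, and all 38 were found. Messenger RNA was sequenced from bone marrow-derived macrophages (BMDMs), cells grown from mouse femoral marrow for 7 days with macrophage colony-stimulating factor. Cells of Ldha knockout (KO) and wild-type (WT) mice were given interferon gamma (IFN-gamma) for 24 h, given interleukin 4 (IL-4) for 24 h, or left untreated. The 6 groups were KO with IFN-gamma, WT with IFN-gamma, KO with IL-4, WT with IL-4, KO untreated and WT untreated. Each held 3 libraries, and each of 6 animals (3 KO and 3 WT, by the animal codes in the labels) gave 1 library to each treatment. Ldha encodes the A chain of lactate dehydrogenase, and the series asks how its expression in macrophages bears on inflammatory function. The labels give the genotype only as a knockout of the gene; the driver of the deletion, the strain, age and sex of the mice and the cytokine doses are not in the labels.

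Heat shock proteins bind unfolded or partly folded proteins. In the cytosol, HSP70 proteins work with J-domain partners that deliver clients and with exchange factors that release them, and HSF1 is the transcription factor that drives their genes under proteotoxic stress. In the ER, BiP (Hspa5) is the central HSP70, calnexin and calreticulin bind glycoproteins, and protein disulfide isomerases form and rearrange disulfide bonds. Client proteins that fail to fold are sent back to the cytosol for ER-associated degradation. The unfolded protein response adjusts these genes through the sensors IRE1 (Ern1), ATF6 and PERK, with XBP1 as the transcription factor activated by IRE1. Macrophages rely on this machinery when activation changes what they secrete and display.

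Values below are normalized counts, the authors' read counts divided by 1 size factor per library, so they compare libraries within a gene. Changes are differences of log2(normalized count + 1) fitted with limma over all 18 libraries and 14288 genes, and a gene was called at an adjusted p (limma, Benjamini-Hochberg over all genes) under 0.05. Libraries held 9.77 to 49.5 M gene-assigned reads (median 30.9 M). Ldha stood at 25.6%, 17.5% and 20.02% of the WT mean in KO libraries with IFN-gamma, with IL-4 and untreated. Lyz2, which encodes lysozyme, stood at 0.0866%, 0.133% and 0.124% of the WT mean, so KO and WT differ in both transcripts and their parts in any difference between genotypes cannot be told apart. All 8 macrophage markers were present in every group, and none of the 5 T and NK cell markers was listed in the table. Of 9 plasma and B cell markers 6 were in the table, and their summed level moved with treatment. It was 125 to 204 normalized counts in KO and 104 to 283 in WT with IFN-gamma and 163 to 475 in KO and 213 to 429.5 in WT with IL-4, against 1032 to 1187 in KO and 1106 to 1230.45 in WT untreated. Of these, Tnfrsf17 was at 0 in both IFN-gamma groups and Ms4a1 in KO with IL-4, and the part of this list in the responses was not tested. By chi-square per gene on recovered reads, WT IFN-gamma replicate 1 gave 54.8 and 60.1 against replicates 2 and 3, which gave 4.3 against each other. Other large values were those of the 3 WT IL-4 pairs (43.1 to 59.2) and KO IL-4 replicates 1 and 3 (56.6). The other pairs gave 10.8 to 34.4. This value grows with the number of reads as well, so it does not rank pairs of unlike depth by distance alone. In bulk RNA, fewer cells of a type and less RNA per cell cannot be told apart.

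Both cytokines raised most of the 38 genes in both genotypes. With IFN-gamma, 26 rose and 4 fell in KO cells, where 28.3% of all genes tested rose and 27.5% fell (55.8% in all). In WT cells 26 rose and 5 fell, where 31.4% of all genes rose and 31.1% fell (62.4% in all). The 26 in WT include Hspb1, which passed the filter on low values only through IFN-gamma libraries and carries no weight. With IL-4, 27 rose and 1 fell in KO cells (15.8% and 14.5% of all genes, 30.2% in all) and 25 rose and 1 fell in WT cells (16.3% and 14.0% of all genes, 30.3% in all). The median log2 change of the members was 0.36 with IFN-gamma in KO, 0.39 with IFN-gamma in WT, 0.48 with IL-4 in KO and 0.30 with IL-4 in WT, while the median over all genes lay between -0.01 and 0.00. Of the members that rose with IFN-gamma, 23 were the same genes in KO and WT, 88.5% of each list of 26. Of those that rose with IL-4, 23 were shared, 85.2% of the KO list and 92.0% of the WT list. Sharing between genotypes or responses was not counted over all genes. These overlaps, and the count that follows, are therefore not shown to be particular to the members. The 17 members that rose in all 4 responses were Hspa1a, Hspa1b, Hsph1, Dnaja1, Bag3, Hsp90ab1, Hspa9, Hspa5, Dnajb11, Manf, Creld2, Calr, Pdia3, Pdia4, Pdia6, P4hb and Derl2. Of these, Derl2 in KO with IFN-gamma and Dnaja1 in WT with IL-4 did not pass with TMM factors. With each library scaled to its own total, Derl2 passed as lower in KO with IFN-gamma. On that scale Hsph1, Dnaja1, Bag3, Hsp90ab1, Dnajb11, Calr, Pdia4, Pdia6 and P4hb also lost at least 1 of their 4 calls. Hspa1a, Hspa1b, Hspa9, Hspa5, Manf, Creld2 and Pdia3 kept all 4. The IFN-gamma and IL-4 responses of a genotype share its untreated libraries.

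These splits depend on what a library is scaled to. The normalized libraries summed to 34.1 to 35.4 M with IFN-gamma, 29.7 to 32.0 M with IL-4 and 27.0 to 28.1 M untreated. With each library scaled to its own total, the median of all genes moved to -0.36 in the KO and -0.31 in the WT response to IFN-gamma, and to -0.14 and -0.17 in the KO and WT responses to IL-4. The members were then split into 13 higher and 11 lower in KO and 15 higher and 9 lower in WT with IFN-gamma, and into 20 higher and 1 lower in KO and 17 higher and 4 lower in WT with IL-4. Rescaling shifts all genes nearly alike, so the number of members above the median of all genes is set by construction and is no check of the scale: it was 32 of 38 with IFN-gamma in KO, 29 in WT, 34 with IL-4 in KO and 33 in WT. Calls that no longer passed under library totals, with the sign kept, were Hsp90aa1, Hsp90ab1, Dnajb11, Derl1 and Ern1 with IFN-gamma in KO. In WT with IFN-gamma they were Hsph1, Bag3, Hsp90aa1, Calr, P4hb, Edem1, Derl1 and Derl2. With IL-4 they were Hspa8, Dnaja1, Hsp90aa1, Dnajc3, Canx, Sel1l and Derl2 in KO. In WT with IL-4 they were Dnaja1, Hsp90ab1, Dnajc3, Canx, Sel1l, Syvn1, Derl2 and Xbp1. Each family below is given on the authors' scale, with the members whose sign flipped under library totals named beside it.

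**Figure D1:**
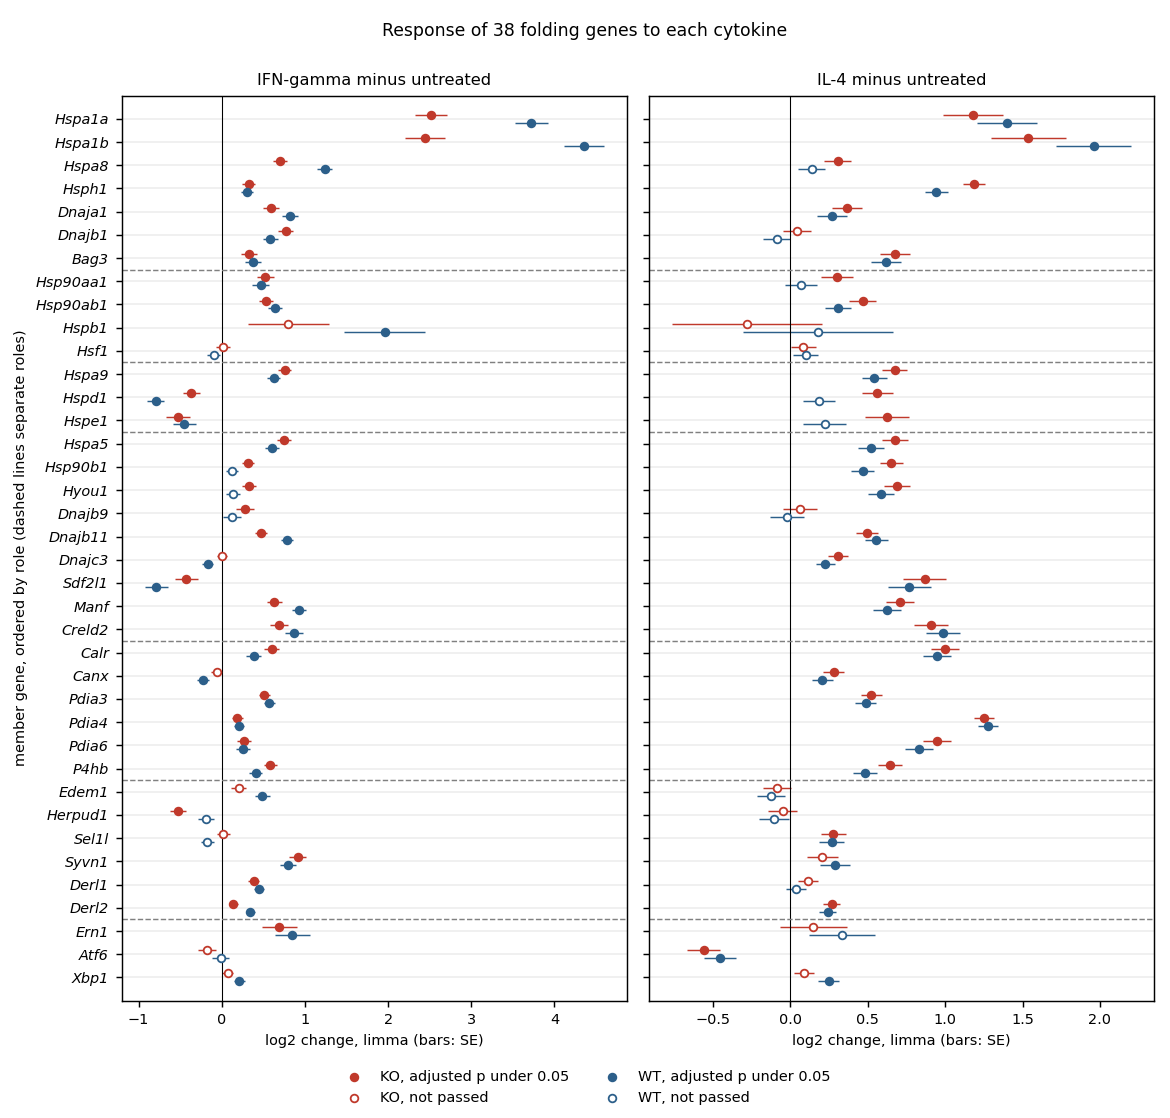
Log2 change of each of the 38 genes with IFN-gamma (left) and with IL-4 (right) against untreated cells, KO in red and WT in blue, with limma standard errors as bars and filled points for adjusted p under 0.05. Hspa1a and Hspa1b lie farthest to the right with IFN-gamma, and Hspd1, Hspe1 and Sdf2l1 lie left of 0 with IFN-gamma and right of 0 with IL-4.

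The stress-inducible HSP70 genes Hspa1a and Hspa1b varied most among the members. Their highest group mean was 13.5 times the lowest for Hspa1a and 21.4 times for Hspa1b, against 2.94 times for Sdf2l1, the next member whose counts stood well above the filter. The genes lie side by side in GRCm38, Hspa1a at chromosome 17, 34969190 to 34972156, minus strand, and Hspa1b at chromosome 17, 34956436 to 34959238, minus strand. Their coding sequences are 1926 and 1929 bases long and carry the same base at 1890 positions counted from the first base, so reads of the pair can be exchanged and their split is uncertain. Their promoters are nearly the same, too: of the 200 bases before the start, printed here 5′ to 3′ in the direction of transcription from the RefSeq table (GRCm38.p6; Hspa1a chr17:34972157-34972356 and Hspa1b chr17:34959239-34959438, both minus strand), 199 are identical. Neither holds an exact match to the ER stress or heat shock motifs searched, so no letters are in capitals. Elements that depart from the exact patterns were not searched, so the absence of a heat shock element is not shown.
Hspa1a: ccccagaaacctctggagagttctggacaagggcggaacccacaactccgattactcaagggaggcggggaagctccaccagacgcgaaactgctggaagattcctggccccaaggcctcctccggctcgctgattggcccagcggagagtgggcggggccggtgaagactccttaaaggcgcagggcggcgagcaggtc
Hspa1b: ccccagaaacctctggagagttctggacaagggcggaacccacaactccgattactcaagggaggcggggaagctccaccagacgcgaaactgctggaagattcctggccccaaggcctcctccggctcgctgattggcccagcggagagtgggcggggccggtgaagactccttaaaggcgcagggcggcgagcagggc

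IFN-gamma raised Hspa1b to 1009, 1124 and 878 normalized counts in KO libraries, against 229.9, 145 and 185 in untreated KO libraries. In WT libraries it stood at 1470.2, 1183 and 808 with IFN-gamma, against 55.5, 56.8 and 49.4 untreated. Treated and untreated libraries did not overlap in either genotype, and the untreated KO libraries all lay above the untreated WT libraries. Each animal against its own untreated library gave ratios of 4.39, 7.77 and 4.76 in KO and 26.5, 20.8 and 16.4 in WT, which do not overlap. The log2 change was 2.44 (SE 0.242, adjusted p = 1.26e-07) in KO and 4.35 (SE 0.242, adjusted p = 4.54e-11) in WT. The KO change minus the WT change was -1.91 (SE 0.343, adjusted p = 0.00201). Hspa1a had 685, 760.2 and 633.98 normalized counts with IFN-gamma, against 129, 114 and 118 untreated, in KO libraries. In WT libraries Hspa1a had 1123, 889 and 637 with IFN-gamma, against 81.8, 57.7 and 56 untreated. Again no treated library fell among the untreated ones, and the untreated KO libraries were the higher of the untreated groups. The change was 2.51 (SE 0.194, adjusted p = 4.74e-09) in KO and 3.72 (SE 0.194, adjusted p = 1.93e-11) in WT. Their difference was -1.21 (SE 0.274, adjusted p = 0.0101).

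The genotypes differed in both genes without IFN-gamma. In untreated cells Hspa1b was 3.36-fold higher in KO than in WT, a log2 difference of 1.75 (SE 0.242, adjusted p = 0.000516), and Hspa1a was 1.86-fold higher, a log2 difference of 0.90 (SE 0.194, adjusted p = 0.0202). With IFN-gamma itself the KO and WT libraries of both genes overlapped, at log2 differences of -0.17 (adjusted p = 0.66) for Hspa1b and -0.31 (adjusted p = 0.248) for Hspa1a. With IL-4, Hspa1b had 737, 464 and 444 normalized counts in KO and 156, 279 and 220.1 in WT libraries, and Hspa1a 341, 226 and 266 in KO and 188, 154 and 172 in WT. All KO libraries lay above the WT ones here, and both genes were called higher in KO, by 1.32 (SE 0.242, adjusted p = 0.00326) for Hspa1b and 0.68 (SE 0.194, adjusted p = 0.0454) for Hspa1a. IL-4 raised Hspa1b by 1.54 (adjusted p = 8.99e-05) in KO and 1.96 (adjusted p = 7.87e-06) in WT, and Hspa1a by 1.18 (adjusted p = 0.000139) in KO and 1.40 (adjusted p = 2.73e-05) in WT. With the pair summed into 1 row, an alternative chosen after the data were seen, KO minus WT was 1.35 (SE 0.198, adjusted p = 0.00087) untreated, -0.23 (SE 0.198, adjusted p = 0.426) with IFN-gamma and 1.06 (SE 0.198, adjusted p = 0.00399) with IL-4. The summed difference of the IFN-gamma responses was -1.58 (SE 0.28, adjusted p = 0.00185). The call of Hspa1a in untreated cells was lost without KO untreated replicate 1 or 3 or WT untreated replicate 2 or 3 (adjusted p = 0.0719 to 0.122). Its call with IL-4 was kept only without KO IL-4 replicate 2, WT IFN-gamma replicate 1 or 3, or WT untreated replicate 1, and was lost without each of the other 14 libraries (adjusted p = 0.0506 to 0.19). Hspa1b kept its calls in both comparisons without any single library, and lost the IL-4 one where only the groups compared were fitted (adjusted p = 0.0867).

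Across the cytosolic HSP70 system, all 7 genes rose with IFN-gamma in KO and in WT, where Hsph1 and Bag3 flipped sign in KO under library totals. Hspa8 (Hsc70, the constitutive cytosolic HSP70; chromosome 9, 40800984 to 40810087, plus strand) had the highest level per kilobase in this system and rose more in WT than in KO. It had 38641, 39114 and 36058 normalized counts with IFN-gamma, against 22232, 24362 and 23453 untreated, in KO libraries. WT libraries had 59673, 58939 and 55125 with IFN-gamma, against 25057, 24876 and 23818 untreated. The 3 WT libraries with IFN-gamma lay above every other library, the KO libraries with IFN-gamma came next, and untreated KO and WT libraries overlapped. The rise was 0.70 (SE 0.0882, adjusted p = 2.42e-06) in KO and 1.24 (SE 0.0882, adjusted p = 1.25e-09) in WT. The difference of the responses was -0.54 (SE 0.125, adjusted p = 0.0119). Under IFN-gamma itself KO stood at 0.655 times the WT level, a log2 difference of -0.61 (SE 0.0882, adjusted p = 7.95e-05). With IL-4 Hspa8 changed by 0.31 (adjusted p = 0.013) in KO and 0.14 (adjusted p = 0.248) in WT, of which the KO change passed.

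Hsph1 (HSP110, an exchange factor for HSP70) and Bag3 rose more with IL-4 than with IFN-gamma, as the direct comparison of the cytokines given later shows. With IL-4 Hsph1 had 5121, 4439 and 4840.2 normalized counts in KO libraries and 3312, 2944 and 3438 in WT libraries. Untreated libraries had 2223, 1971 and 2126 in KO and 1686, 1718 and 1621 in WT. IL-4 libraries lay above untreated ones in both genotypes, and KO above WT within each treatment. The IL-4 change was 1.19 (SE 0.0737, adjusted p = 1.94e-09) in KO and 0.94 (SE 0.0737, adjusted p = 3.68e-08) in WT. The IFN-gamma change was 0.32 (adjusted p = 0.00121) in KO and 0.30 (adjusted p = 0.00169) in WT. Hsph1 was also the only member called higher in KO in all 3 treatments, by 0.35 (SE 0.0737, adjusted p = 0.00215) with IFN-gamma, 0.57 (SE 0.0737, adjusted p = 0.000177) with IL-4 and 0.33 (SE 0.0737, adjusted p = 0.0242) untreated. The untreated call was lost without KO untreated replicate 1 or 3 or without any of the 3 WT untreated libraries (adjusted p = 0.0677 to 0.15). Dnajb1 (HSP40, a J-domain partner of HSP70) had 2082, 1829 and 1812 normalized counts in KO and 1352, 1605 and 1544 in WT with IFN-gamma, against 1093, 1126 and 1137 in KO and 1010.3, 988 and 994 in WT untreated. Its IFN-gamma libraries stood above all untreated ones, and KO above WT. The change was 0.77 (SE 0.089, adjusted p = 8.89e-07) in KO and 0.58 (SE 0.089, adjusted p = 1.78e-05) in WT with IFN-gamma. IL-4 gave 0.05 (adjusted p = 0.754) in KO and -0.09 (adjusted p = 0.493) in WT, and neither passed. Under IFN-gamma, Dnajb1 was higher in KO by 0.35 (SE 0.089, adjusted p = 0.00771). Bag3, a partner of HSP70 in selective autophagy, rose by 0.68 (adjusted p = 2.98e-05) in KO and 0.62 (adjusted p = 8.87e-05) in WT with IL-4, and by 0.33 and 0.38 with IFN-gamma. With IL-4 it had 3093, 2631 and 2579 in KO and 2062, 2092 and 2424 in WT libraries, where all KO libraries lay above the WT ones, a difference of 0.33 (SE 0.0961, adjusted p = 0.0456). That call was lost without any of 12 libraries, all but KO IFN-gamma replicates 1 and 2, KO IL-4 replicate 3, WT IFN-gamma replicates 1 and 3 and WT IL-4 replicate 3 (adjusted p = 0.0522 to 0.189). Dnaja1, the other HSP40 of the set, rose by 0.59 (adjusted p = 5.60e-05) in KO and 0.82 (adjusted p = 9.96e-07) in WT with IFN-gamma. With IL-4 Dnaja1 rose by 0.36 (adjusted p = 0.00818) in KO and 0.27 (adjusted p = 0.0432) in WT.

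**Figure D2:**
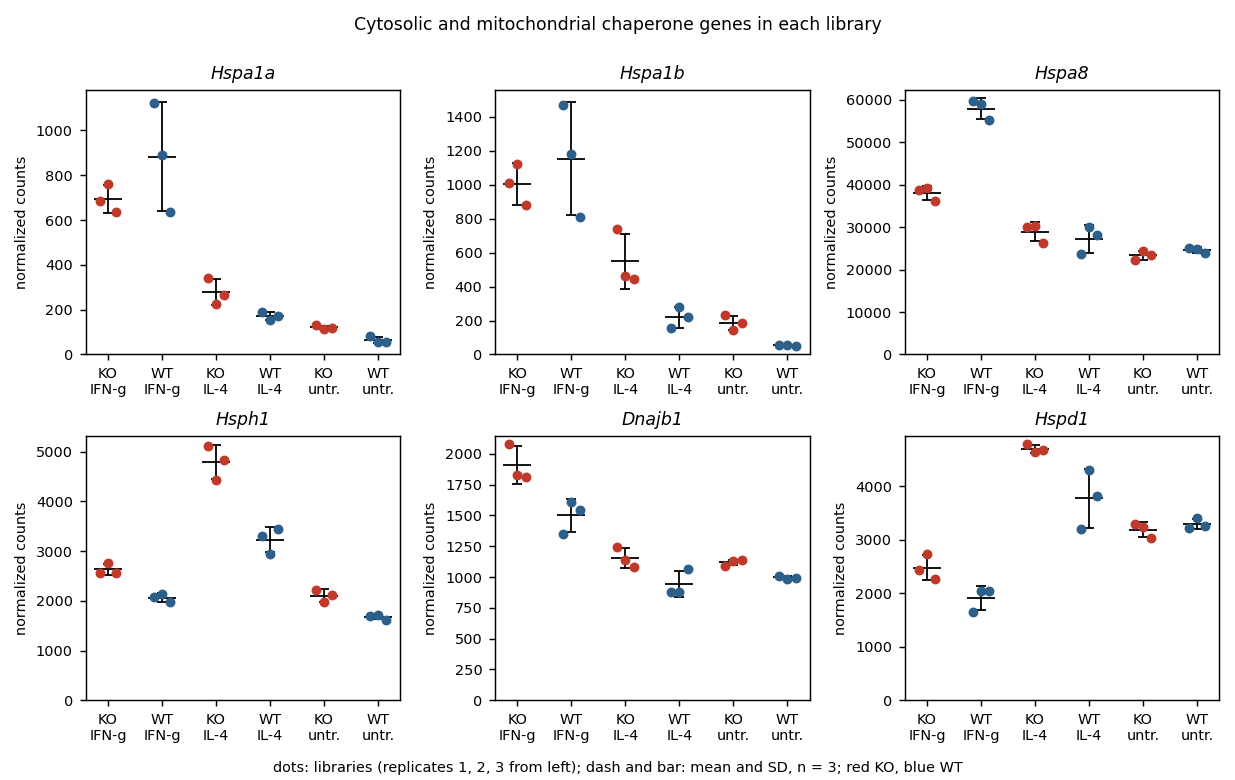
Normalized counts of 6 chaperone genes in each library (dots), with the group mean and SD (n = 3), KO in red and WT in blue. Hspa8 reaches 55125 to 59673 in WT libraries with IFN-gamma, above the KO libraries with IFN-gamma at 36058 to 39114, while Hspa1a and Hspa1b start higher in untreated KO than in untreated WT libraries.

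Of the HSP90 group, Hsp90ab1, the constitutive HSP90 and the member with most reads per kilobase, rose in all 4 responses. It rose by 0.53 (adjusted p = 3.94e-05) in KO and 0.64 (adjusted p = 4.05e-06) in WT with IFN-gamma and by 0.47 (adjusted p = 0.000397) and 0.31 (adjusted p = 0.0105) with IL-4. The stress-inducible Hsp90aa1 rose with IFN-gamma by 0.52 (adjusted p = 0.000305) in KO and 0.47 (adjusted p = 0.000667) in WT. With IL-4 it had 6614, 6332 and 6241 normalized counts in KO and 3906, 5354 and 5122 in WT libraries, and the groups did not overlap. Hsp90aa1 was higher in KO there by 0.43 (SE 0.102, adjusted p = 0.0176), a call lost without KO IL-4 replicate 1 (adjusted p = 0.0681) or WT IL-4 replicate 1 (0.0581). Hsf1, the transcription factor of the heat shock response, had 917, 807 and 824 in KO and 749, 839 and 784 in WT with IFN-gamma. With IL-4 it had 916, 920.2 and 834 in KO and 923, 875 and 926 in WT, and untreated 829, 922 and 769 in KO and 826, 874 and 839 in WT. The highest group mean of Hsf1 was 1.15 times the lowest, and none of its responses or genotype differences passed (log2 changes of -0.10 to 0.10 in the responses). WT libraries with IFN-gamma lay below WT libraries with IL-4, at a log2 difference of -0.20 (SE 0.0814, adjusted p = 0.0416). Hspb1, the small heat shock protein HSP25, was scarce: 11, 5.2 and 13 normalized counts in KO and 25.5, 15.8 and 14.2 in WT with IFN-gamma, and under 10 in every other library. It passed the filter on low values only through 5 libraries with IFN-gamma, so its call in the WT response (log2 change 1.96) carries no weight.

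Among the mitochondrial chaperones, the HSP60 and HSP10 chaperonin genes fell with IFN-gamma while the mitochondrial HSP70 gene rose. Hspd1 (HSP60) and Hspe1 (HSP10) are read in opposite directions from one shared promoter region and overlap in the annotation (Hspd1 at chromosome 1, 55077835 to 55088243, minus strand, Hspe1 at chromosome 1, 55088132 to 55091307, plus strand). The 200 bases before the start of Hspe1 (chr1:55087948-55088147, plus strand, RefSeq GRCm38.p6) are shown because they hold the heat shock element searched on both strands as GAA, TTC and GAA with 2 bases of any kind between them, whose fixed letters are in capitals in overlapping matches on both strands. The same element lies on the other strand in the window chr1:55087933-55088132, before a RefSeq start of Hspd1 that is inside the gene as annotated. The window before the annotated start of Hspd1 (chr1:55088244-55088443) holds no match.
Hspe1: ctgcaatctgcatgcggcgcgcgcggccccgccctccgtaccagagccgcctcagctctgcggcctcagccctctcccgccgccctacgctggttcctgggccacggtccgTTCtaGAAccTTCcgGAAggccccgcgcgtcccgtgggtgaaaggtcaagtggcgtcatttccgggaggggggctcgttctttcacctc

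Hspd1 had 2437, 2728 and 2269 normalized counts in KO and 1645, 2044 and 2038 in WT with IFN-gamma, and 4780.2, 4633 and 4679.9 in KO and 3203, 4305 and 3812 in WT with IL-4. Untreated libraries had 3284, 3238 and 3026 in KO and 3223, 3403 and 3254 in WT. IFN-gamma libraries were below and KO IL-4 libraries above all untreated ones, while WT IL-4 libraries overlapped the untreated range. With IFN-gamma Hspd1 fell by 0.36 (SE 0.10, adjusted p = 0.00501) on the log2 scale in KO and by 0.79 (SE 0.10, adjusted p = 2.11e-06) in WT. With IL-4 it rose by 0.56 (SE 0.10, adjusted p = 0.000309) in KO, and the WT change was 0.19 (adjusted p = 0.176). Hspd1 was higher in KO than in WT under IFN-gamma by 0.38 (SE 0.10, adjusted p = 0.00939), a call lost without KO IFN-gamma replicate 2 (adjusted p = 0.0536) or WT IFN-gamma replicate 1 (0.0546). Hspe1 moved the same way, with 787, 836 and 731 in KO and 951, 790.3 and 769 in WT with IFN-gamma, against 1177, 1128 and 1080.2 in KO and 1148, 1131 and 1132 in WT untreated. Every IFN-gamma library of Hspe1 lay below every untreated one. Its IFN-gamma change was -0.52 (SE 0.14, adjusted p = 0.00397) in KO and -0.45 (SE 0.14, adjusted p = 0.010) in WT. The IL-4 change of 0.62 (adjusted p = 0.00226) in KO passed, and that of 0.22 (adjusted p = 0.244) in WT did not. Hspa9 (mortalin, the mitochondrial HSP70) had 13916, 15745 and 14085 in KO and 11323, 12697 and 12578 in WT with IFN-gamma, against 8606, 8299 and 8979 in KO and 7844, 7874 and 8006 in WT untreated, with no overlap between treated and untreated. The rise was 0.76 (SE 0.0812, adjusted p = 3.48e-07) in KO and 0.62 (SE 0.0812, adjusted p = 2.97e-06) in WT, and with IL-4 0.67 (adjusted p = 5.35e-06) and 0.54 (adjusted p = 5.90e-05). Under IFN-gamma Hspa9 was higher in KO by 0.26 (SE 0.0812, adjusted p = 0.0254), a call lost without KO IFN-gamma replicate 2 (adjusted p = 0.119) or WT IFN-gamma replicate 1 (0.106). No sign of these 3 genes flipped under library totals.

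Of the 9 ER chaperones and cofactors, 8 rose with IL-4 in both genotypes, and all kept their sign under library totals. With IFN-gamma 7 rose and 1 fell in KO, and 4 rose and 2 fell in WT, where Hsp90b1, Hyou1 and Dnajb9 flipped sign in KO under library totals. Hspa5 (BiP; chromosome 2, 34771970 to 34777547, plus strand) rose with both cytokines. Its promoter (chr2:34771890-34772089, plus strand) and that of Creld2, an ER stress-inducible protein (chr15:88819446-88819645, plus strand), are shown because both hold the ER stress response element (ERSE), searched on both strands as CCAAT and CCACG with 9 bases of any kind between them, with its fixed letters in capitals (200 bases before the start, RefSeq GRCm38.p6).
Hspa5: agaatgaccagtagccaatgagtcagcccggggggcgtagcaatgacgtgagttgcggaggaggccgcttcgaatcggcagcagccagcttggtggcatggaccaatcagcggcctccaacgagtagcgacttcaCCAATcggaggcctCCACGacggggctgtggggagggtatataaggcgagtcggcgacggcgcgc
Creld2: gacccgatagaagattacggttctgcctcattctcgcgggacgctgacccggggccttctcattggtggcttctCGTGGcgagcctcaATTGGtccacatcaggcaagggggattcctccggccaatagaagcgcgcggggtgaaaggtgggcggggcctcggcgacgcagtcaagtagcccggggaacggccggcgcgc

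Of the 38 members, 29 had a promoter in the RefSeq table, and in windows of 250 bases before to 50 after the start the ERSE occurred in 8 of them: Calr, Canx, Creld2, Dnajc3, Hsp90b1, Hspa5, Pdia6 and Syvn1. Over all 27025 genes of the table the share was 0.137%. The related ERSE-II (ATTGG and CCACG with 1 base between them) occurred in Dnajb11 and Herpud1 (0.0444% of all genes), and the heat shock element in Hspd1, Hspe1 and Hsph1 (0.662% of all genes). The XBP1 core TGACGTGG occurred in 0 of the 29 (0.714% of all genes), and the CCAAT box alone, which is part of the ERSE, in 24 of 29 (41.1% of all genes). The members were chosen as heat shock and ER folding genes, the kind these elements are named for, so the contrast with all genes is no independent test. A match is a run of letters in the window and does not show that a factor binds there. A window without an exact match may still hold a looser form of an element.

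Hspa5 had 39604, 40255 and 40069 normalized counts in KO and 38382, 41223 and 41186 in WT with IFN-gamma. With IL-4 it had 35506, 37358 and 41243 in KO and 41303, 37590.2 and 35249 in WT, against 22470.4, 24038 and 24831 in KO and 29148, 25351 and 25124 in WT untreated. All treated libraries lay above all untreated ones, and the genotypes overlapped within each cytokine. The rise was 0.75 (SE 0.0842, adjusted p = 5.83e-07) in KO and 0.60 (SE 0.0842, adjusted p = 6.57e-06) in WT with IFN-gamma. With IL-4 it was 0.68 (SE 0.0842, adjusted p = 7.51e-06) in KO and 0.52 (SE 0.0842, adjusted p = 0.00013) in WT. Hspa5 did not pass between the genotypes in any treatment (log2 differences of -0.01 with IFN-gamma, 0.00 with IL-4 and -0.16 untreated). Creld2 had 1519.8, 1398 and 1269 in KO and 1305, 1541 and 1277 in WT with IL-4, against 795, 713 and 719 in KO and 716, 724 and 636 in WT untreated. This was a rise of 0.91 (SE 0.109, adjusted p = 5.25e-06) in KO and 0.99 (SE 0.109, adjusted p = 2.36e-06) in WT. Its treated and untreated libraries did not overlap, and IFN-gamma gave 0.68 (adjusted p = 3.77e-05) in KO and 0.86 (adjusted p = 2.04e-06) in WT. Hsp90b1 (GRP94, the HSP90 of the ER) had 20968, 22498 and 24052 in KO and 21938, 21029.5 and 19741 in WT with IL-4, against 14112, 14389 and 14351 in KO and 16694, 14553 and 14159.7 in WT untreated. It rose with IL-4 by 0.65 (SE 0.0728, adjusted p = 2.22e-06) in KO and 0.47 (SE 0.0728, adjusted p = 8.71e-05) in WT, with no overlap of treated and untreated libraries.

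Manf and Dnajb11 rose with IFN-gamma in both genotypes. Manf, a secreted ER stress-inducible factor, had 2977, 2572 and 2722 normalized counts in KO and 3550.3, 3253 and 3176 in WT with IFN-gamma, against 1821, 1720.2 and 1796 in KO and 2012, 1669.8 and 1585 in WT untreated. The change was 0.63 (SE 0.089, adjusted p = 9.49e-06) in KO and 0.93 (SE 0.089, adjusted p = 6.42e-08) in WT. All IFN-gamma libraries stood above the untreated ones, and KO IFN-gamma libraries lay below the WT ones, a log2 difference of -0.27 (SE 0.089, adjusted p = 0.0303). That difference was lost without KO IFN-gamma replicate 2 or 3 or WT IFN-gamma replicate 1 or 2 (adjusted p = 0.051 to 0.122). Dnajb11 (ERdj3, a J-domain partner of BiP) had 5645, 5420.4 and 5146 in KO and 5949, 5831 and 5751 in WT with IFN-gamma, against 3976, 3891 and 3793 in KO and 3709, 3425 and 3094 in WT untreated. Its KO and WT libraries overlapped in neither treatment, WT being the higher with IFN-gamma and KO the higher untreated. The IFN-gamma change of Dnajb11 was 0.47 (SE 0.0717, adjusted p = 2.02e-05) in KO and 0.78 (SE 0.0717, adjusted p = 3.54e-08) in WT. Sdf2l1, an ER cofactor of BiP, went opposite ways with the cytokines. It had 1828, 1417 and 1204 in KO and 1094, 1355 and 1307 in WT with IFN-gamma, and 4243, 3686 and 2953 in KO and 3595, 3492 and 3944 in WT with IL-4. Untreated libraries had 2050.5, 1949.7 and 1901 in KO and 2389, 2153 and 1943 in WT. The 3 treatments did not overlap in either genotype. With IFN-gamma the log2 change was -0.43 (SE 0.14, adjusted p = 0.0148) in KO and -0.79 (SE 0.14, adjusted p = 9.24e-05) in WT. With IL-4 it was 0.87 (SE 0.14, adjusted p = 0.000113) in KO and 0.77 (SE 0.14, adjusted p = 0.000395) in WT. The KO fall with IFN-gamma was lost without KO IFN-gamma replicate 3 (adjusted p = 0.0998). Dnajc3 (p58IPK, a J-domain cofactor of BiP) changed by -0.17 (SE 0.0623, adjusted p = 0.025) with IFN-gamma in WT, where libraries had 3299, 3385 and 3378 with IFN-gamma, against 3944, 3522 and 3867 untreated. That call was lost without WT IFN-gamma replicate 1 or WT untreated replicate 1 or 3 (adjusted p = 0.0577 to 0.106). With IL-4 Dnajc3 rose by 0.31 (adjusted p = 0.000916) in KO and 0.23 (adjusted p = 0.0102) in WT. Hyou1 (GRP170, the exchange factor of BiP) rose with IL-4 by 0.69 (adjusted p = 6.41e-06) in KO and 0.59 (adjusted p = 4.05e-05) in WT, while Dnajb9 (ERdj4) did not pass. Its IL-4 change was 0.06 (adjusted p = 0.713) in KO and -0.02 (adjusted p = 0.912) in WT.

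All 6 ER lectins and disulfide isomerases rose with IL-4 in KO and in WT, on the authors' scale and with the same sign under library totals. With IFN-gamma 5 of 6 rose in each genotype, where Pdia4 and Pdia6 flipped sign in both genotypes under library totals. Calr (calreticulin, the soluble ER lectin; chromosome 8, 84841850 to 84846934, minus strand) is among the genes whose promoter holds the ERSE, here on the other strand, with its fixed letters in capitals (chr8:84846932-84847131, minus strand, 200 bases before the start, RefSeq GRCm38.p6).
Calr: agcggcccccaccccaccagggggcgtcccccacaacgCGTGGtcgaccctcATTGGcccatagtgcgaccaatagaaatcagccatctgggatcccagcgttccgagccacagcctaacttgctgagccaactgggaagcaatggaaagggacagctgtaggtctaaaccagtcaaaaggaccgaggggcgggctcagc

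Pdia4 (ERp72, a disulfide isomerase; chromosome 6, 47796141 to 47813430, minus strand) had the smallest adjusted p of the 38 with IL-4 in both genotypes. It had 5553, 5427 and 5972 normalized counts in KO and 6050.2, 5744 and 5834 in WT with IL-4, against 2209.8, 2446 and 2466 in KO and 2604, 2259.7 and 2416 in WT untreated. Each IL-4 library lay above every library without IL-4, and KO and WT libraries interleaved untreated. The change was 1.25 (SE 0.0657, adjusted p = 2.66e-10) in KO, 2.38-fold, and 1.28 (SE 0.0657, adjusted p = 2.20e-10) in WT, 2.42-fold. IFN-gamma changed Pdia4 by 0.19 (adjusted p = 0.023) in KO and 0.21 (adjusted p = 0.0112) in WT. Calr had 42159, 41134 and 36027 in KO and 36077, 40479 and 38939 in WT with IL-4, against 20012, 20023 and 19484 in KO and 21927, 20126 and 17970.5 in WT untreated, with no overlap. It rose by 1.00 (SE 0.0892, adjusted p = 1.61e-07) in KO and 0.95 (SE 0.0892, adjusted p = 3.53e-07) in WT with IL-4, and by 0.60 (adjusted p = 1.68e-05) and 0.38 (adjusted p = 0.00121) with IFN-gamma. Pdia6, another disulfide isomerase, had 9349.8, 9065 and 8407 in KO and 9176, 7819.7 and 8554 in WT with IL-4, against 4568, 4818 and 4496 in KO and 5466, 4618 and 4303 in WT untreated. Its libraries did not overlap either, and it rose by 0.95 (SE 0.0887, adjusted p = 2.80e-07) in KO and 0.83 (SE 0.0887, adjusted p = 1.52e-06) in WT. P4hb, the prototype disulfide isomerase, had 22294, 20573 and 21099 in KO and 22848, 19039 and 19984 in WT with IL-4, against 13238, 13406 and 14193 in KO and 15805, 14445 and 14012 in WT untreated. It rose by 0.65 (SE 0.0772, adjusted p = 4.77e-06) in KO and 0.48 (SE 0.0772, adjusted p = 0.000121) in WT, and the libraries did not overlap. Pdia3 (ERp57, which works with the lectins) had 21403, 22310.3 and 20935 in KO and 20984, 23262 and 22202 in WT with IFN-gamma, against 15069, 15144 and 15195 in KO and 16082, 14684 and 14055 in WT untreated. All treated Pdia3 libraries lay above the untreated ones, by 0.51 (SE 0.0666, adjusted p = 3.85e-06) in KO and 0.57 (SE 0.0666, adjusted p = 8.14e-07) in WT with IFN-gamma, close to the 0.52 and 0.49 with IL-4. Canx (calnexin, the membrane lectin) was the exception with IFN-gamma: 17191, 18236 and 17437 in KO and 14201, 14920.1 and 15695 in WT, against 18319.6, 17858 and 19013 in KO and 17937, 16877 and 17598 in WT untreated. It fell in WT, by a log2 change of -0.23 (SE 0.0683, adjusted p = 0.00803) with no overlap of libraries, and in KO the change was -0.06 (adjusted p = 0.46). Under IFN-gamma Canx was higher in KO by 0.24 (SE 0.0683, adjusted p = 0.0148), a call lost without KO IFN-gamma replicate 2 (adjusted p = 0.0599) or WT IFN-gamma replicate 1 (0.0571).

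**Figure D3:**
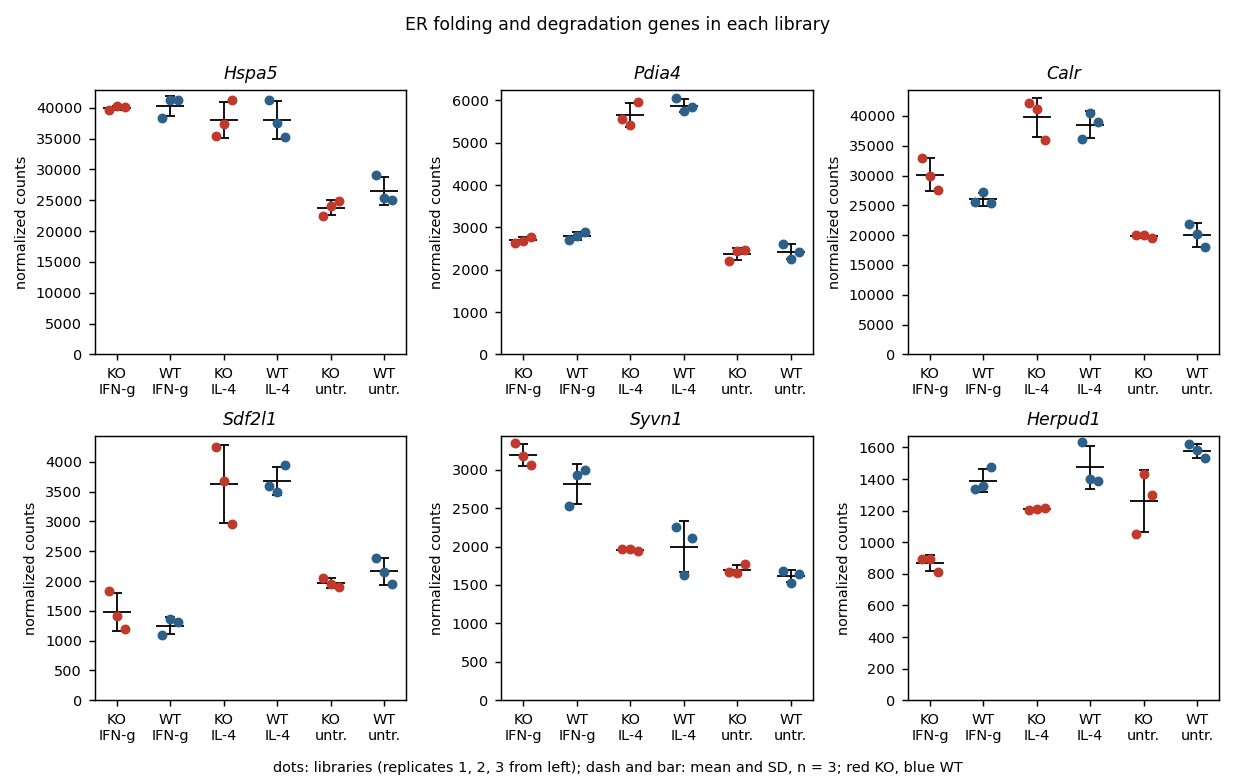
Normalized counts of 6 ER genes in each library (dots), with the group mean and SD (n = 3), KO in red and WT in blue. Pdia4 stands at 5427 to 5972 in KO and 5744 to 6050.2 in WT libraries with IL-4, Sdf2l1 is lowest with IFN-gamma and highest with IL-4, and Herpud1 with IFN-gamma is at 813 to 897 in KO and 1339.6 to 1474 in WT.

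The genes of ER-associated degradation did not move in one direction. Of 6, 3 rose and 1 fell in KO and 4 rose in WT with IFN-gamma, where Derl2 flipped sign in KO under library totals and passed as lower. With IL-4 2 rose in KO and 3 in WT. The promoters of Syvn1 (chr19:6046376-6046575, plus strand) and Herpud1 (chr8:94386229-94386428, plus strand) are set side by side because these genes went opposite ways in KO cells while each holds an ER stress motif, the ERSE in Syvn1 and the ERSE-II in Herpud1, in capitals (200 bases before the start, RefSeq GRCm38.p6).
Syvn1: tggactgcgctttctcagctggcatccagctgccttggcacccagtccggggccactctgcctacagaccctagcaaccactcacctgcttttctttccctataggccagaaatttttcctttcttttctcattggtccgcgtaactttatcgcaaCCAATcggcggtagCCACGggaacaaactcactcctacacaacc
Herpud1: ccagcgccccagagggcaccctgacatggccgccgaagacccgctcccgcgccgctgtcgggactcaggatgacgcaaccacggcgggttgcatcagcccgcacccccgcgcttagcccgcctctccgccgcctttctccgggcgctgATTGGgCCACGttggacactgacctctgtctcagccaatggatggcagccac

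Syvn1 (HRD1, the ubiquitin ligase of the pathway) had 3347, 3174 and 3054 normalized counts in KO and 2522, 2924 and 2998 in WT with IFN-gamma, against 1666, 1652 and 1772 in KO and 1679.6, 1529.9 and 1647 in WT untreated. No treated library overlapped an untreated one, and all KO IFN-gamma libraries stood above the WT ones. Syvn1 rose by 0.91 (SE 0.0977, adjusted p = 3.34e-07) in KO and 0.79 (SE 0.0977, adjusted p = 1.46e-06) in WT, and the genotype difference under IFN-gamma of 0.18 (adjusted p = 0.175) did not pass. Herpud1, an ER membrane protein that binds the ligase, had 897, 895 and 813 in KO and 1339.6, 1354 and 1474 in WT with IFN-gamma, against 1050.2, 1434 and 1301 in KO and 1620.2, 1586 and 1531 in WT untreated. The KO libraries with IFN-gamma lay below every other library, and KO lay below WT without overlap in the untreated cells as well. Herpud1 fell in KO with IFN-gamma, at -0.53 (SE 0.0959, adjusted p = 0.000144), and the WT change was -0.19 (adjusted p = 0.102). KO against WT under IFN-gamma gave -0.68 (SE 0.0959, adjusted p = 6.50e-05), and the differences of -0.28 (adjusted p = 0.0906) with IL-4 and -0.34 (adjusted p = 0.0914) untreated did not pass. Edem1, a lectin that marks misfolded glycoproteins, rose with IFN-gamma by 0.49 (adjusted p = 0.000129) in WT, and in KO changed by 0.20 (adjusted p = 0.0638). With a term for each animal the KO change of Edem1 passed (adjusted p = 0.0155). The derlins Derl1 and Derl2, membrane proteins of the export channel, rose with IFN-gamma by 0.38 and 0.14 in KO and by 0.45 and 0.34 in WT. Sel1l, the partner of HRD1, rose with IL-4 by 0.28 (adjusted p = 0.0138) in KO and 0.27 (adjusted p = 0.0171) in WT.

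Of the sensors, Ern1 rose with IFN-gamma and Atf6 fell with IL-4. Ern1 (IRE1) rose by 0.69 (adjusted p = 0.0109) in KO and 0.85 (adjusted p = 0.00231) in WT with IFN-gamma. The IL-4 change of Ern1 was 0.15 (adjusted p = 0.655) in KO and 0.33 (adjusted p = 0.257) in WT. With a term for each animal the WT change of Ern1 with IL-4 passed (adjusted p = 0.0371). Atf6 had 3513, 3802 and 4759 normalized counts in KO and 5092, 4200.00 and 4212 in WT with IL-4, against 5694, 5751 and 6182 in KO and 6306, 5899.7 and 6210.1 in WT untreated. Its IL-4 libraries lay below the untreated ones in both genotypes, at log2 changes of -0.56 (SE 0.106, adjusted p = 0.000539) in KO and -0.45 (SE 0.106, adjusted p = 0.00322) in WT. It was the sole member that fell with IL-4. Xbp1 messenger RNA moved little. It had 5795, 6155 and 6139.7 in KO and 7253, 6446 and 6884 in WT with IFN-gamma, and 6135, 6186 and 6000.1 in KO and 7067, 7216 and 6832 in WT with IL-4. Untreated libraries had 5329, 5823 and 6079.6 in KO and 6299, 5714 and 5776 in WT, and the range of all groups is narrow, the highest group mean being 1.23 times the lowest. It rose in WT by 0.21 (SE 0.0651, adjusted p = 0.00966) with IFN-gamma, which flipped sign under library totals, and by 0.25 (SE 0.0651, adjusted p = 0.00745) with IL-4. In KO it changed by 0.07 (adjusted p = 0.367) with IFN-gamma and 0.09 (adjusted p = 0.33) with IL-4. Under IFN-gamma Xbp1 was lower in KO, with a log2 difference of -0.19 (SE 0.0651, adjusted p = 0.0423). This call was lost without any 1 of 9 libraries: KO IFN-gamma replicates 1, 2 and 3, WT IFN-gamma replicates 1 and 3, KO IL-4 replicate 2, KO untreated replicate 2, and WT untreated replicates 2 and 3 (adjusted p = 0.0524 to 0.15). Gene counts do not separate the spliced from the unspliced form of Xbp1, which IRE1 sets.

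Set directly against each other, a comparison chosen after the data were seen, IFN-gamma gave the higher levels of Hspa1a, Hspa1b, Hspa8 and Dnajb1 and the lower levels of Hsph1, Bag3, Pdia4 and Sdf2l1 in both genotypes. IFN-gamma libraries were higher for 9 members and lower for 14 in KO (27.5% and 27.4% of all genes, 55.0% in all) and higher for 15 and lower for 14 in WT (30.8% and 29.7% of all genes, 60.5% in all). The 15 in WT include Hspb1, which carries no weight for the reason given above. Under library totals the splits were 4 higher and 22 lower in KO and 12 higher and 17 lower in WT, as the median of all genes moved to -0.22 and -0.13. Of the HSP70 system, 4 of 7 in KO and 5 of 7 in WT were higher with IFN-gamma, and Hsph1 and Bag3 were lower. Of the 6 lectins and isomerases, 4 were lower with IFN-gamma in each genotype, and of the 9 ER chaperones 4 were lower in each. Dnajb11 and Manf were higher in WT, and neither passed under library totals. Pdia4 differed by -1.07 (SE 0.0657, adjusted p = 2.45e-10) in KO and -1.07 (SE 0.0657, adjusted p = 1.87e-10) in WT. Sdf2l1 differed by -1.30 (SE 0.14, adjusted p = 3.86e-07) and -1.56 (SE 0.14, adjusted p = 2.85e-08). Hspd1 differed by -0.93 (adjusted p = 4.10e-07) in KO and -0.98 (adjusted p = 1.62e-07) in WT, Hspe1 by -1.15 and -0.67, Hsph1 by -0.87 and -0.64, and Pdia6 by -0.68 and -0.58. On the other side stood Hspa1a with 1.33 (adjusted p = 1.37e-05) in KO and 2.33 (adjusted p = 1.10e-08) in WT, Hspa1b with 0.90 and 2.39, Dnajb1 with 0.72 and 0.67, and Syvn1 with 0.70 and 0.51. Hspa8 was higher with IFN-gamma by 0.39 (adjusted p = 0.00103) in KO, which did not pass under library totals (adjusted p = 0.0669), and by 1.10 (adjusted p = 6.79e-09) in WT. Derl1 was higher by 0.27 (adjusted p = 0.00194) in KO, a call also lost under library totals (adjusted p = 0.503), and by 0.41 in WT. Edem1 was higher by 0.29 in KO, which did not pass under library totals, and by 0.61 in WT. Ern1 was higher by 0.54 in KO and 0.52 in WT and Atf6 by 0.38 in KO, and none of these 3 passed under library totals. Canx was lower with IFN-gamma, at -0.34 (adjusted p = 0.000353) in KO and -0.43 (adjusted p = 2.73e-05) in WT. With a term for each animal Creld2, Dnaja1 and Hsp90aa1 passed in KO as well (adjusted p = 0.0246, 0.0203 and 0.0303).

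**Figure D4:**
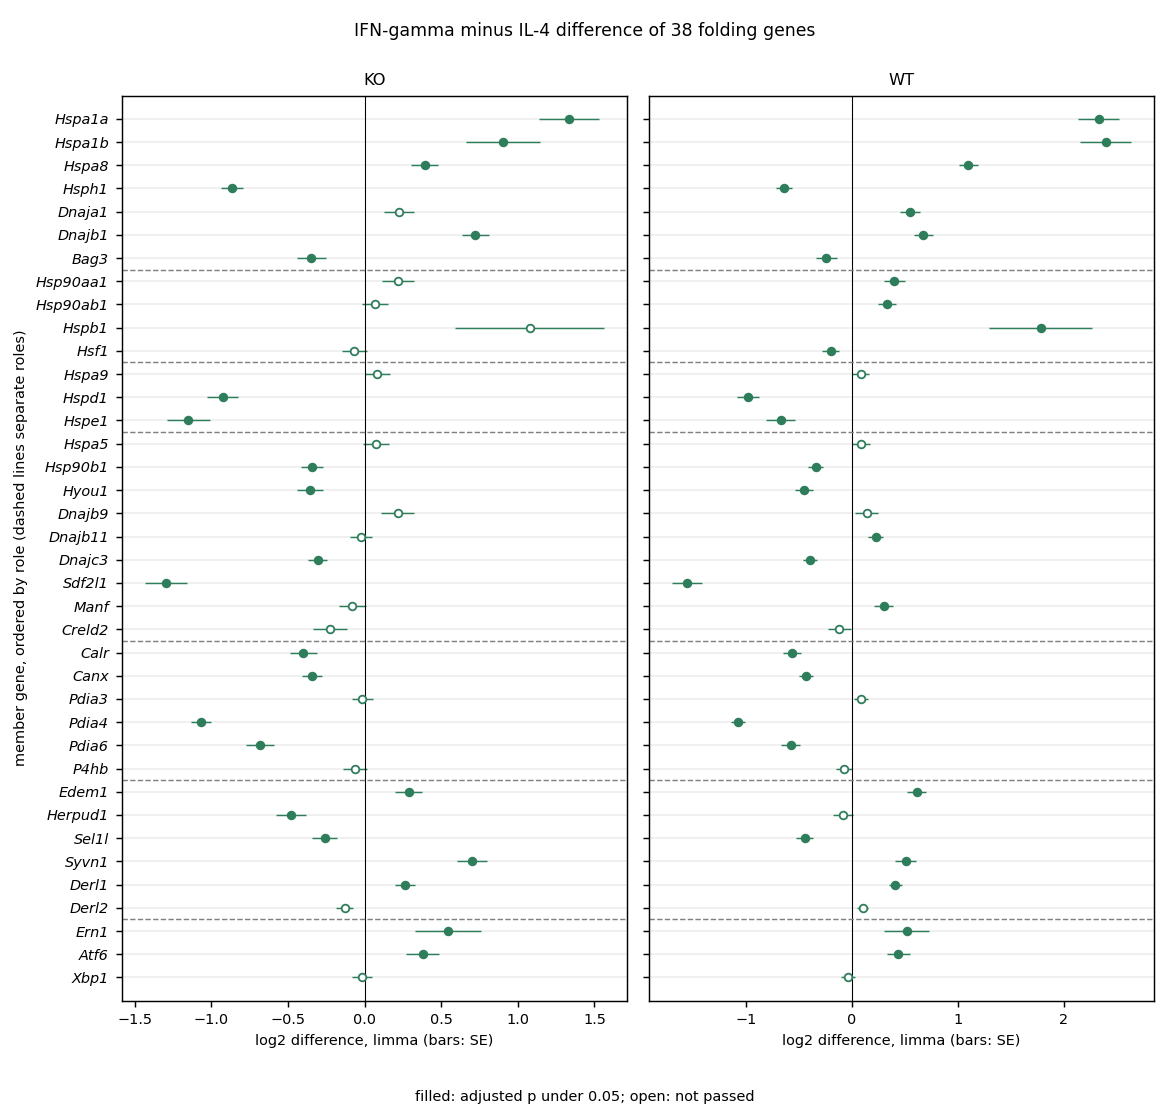
Log2 difference of IFN-gamma minus IL-4 for each of the 38 genes in KO (left) and WT (right), with limma standard errors as bars and filled points for adjusted p under 0.05. Hspa1a and Hspa1b lie to the right in both genotypes, and Pdia4 (-1.07 in KO and -1.07 in WT) and Sdf2l1 to the left.

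Between the genotypes the members that differed without treatment and with IL-4 were cytosolic heat shock genes. Under IFN-gamma 5 were higher and 4 lower in KO, 9 of 38 where 27.9% of all genes tested were called, so the share of members is near that of all genes. With IL-4 5 were higher and 0 lower, where 3.46% of all genes were higher and 3.13% lower (6.59% in all), and untreated 3 were higher and 0 lower, where 1.46% were higher and 0.525% lower (1.98% in all). For the 0 lower by limma, 2 members with IL-4 and 2 untreated were lower at an unadjusted p under 0.05, edgeR called 0 in each and DESeq2 called 1 in each. The 5 higher with IL-4 were Hsph1, Hspa1b, Hsp90aa1, Hspa1a and Bag3, and the 3 higher untreated were Hspa1b, Hspa1a and Hsph1. Under IFN-gamma the higher ones were Hsph1, Dnajb1, Hspd1, Canx and Hspa9 and the lower ones Herpud1, Hspa8, Manf and Xbp1. The counts rest on few libraries. Untreated, the count was 1 without KO replicate 1 or 3 or WT replicate 2 or 3. Under IFN-gamma it was 5 without KO IFN-gamma replicate 2 and 4 without WT IFN-gamma replicate 1. With IL-4 it was 2 without KO IL-4 replicate 1, and 3 without KO IFN-gamma replicate 3, KO untreated replicate 2 or 3, WT IFN-gamma replicate 2, WT IL-4 replicate 1 or WT untreated replicate 2 or 3. Without WT IFN-gamma replicate 1 it was 10, since all libraries share 1 estimate of the spread. Fitting only the groups compared ended further calls. With IL-4 these were Hspa1b as given above, Hspa1a (adjusted p = 0.191), Hsp90aa1 (0.20) and Bag3 (0.237). Under IFN-gamma they were Canx (adjusted p = 0.0519), Hspa9 (0.0643), Manf (0.0516) and Xbp1 (0.102).

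The IFN-gamma response differed between KO and WT for 3 members, Hspa1b, Hspa1a and Hspa8, all smaller in KO, where 4.84% of all genes tested were lower and 4.3% higher (9.15% in all). The 3 of 38 is a share below that of all genes. With a term for each animal 5 were called, the same 3 with adjusted p = 0.000704, 0.00164 and 0.00749, and also Hspd1 (log2 difference 0.43, adjusted p = 0.0134) and Dnajb11 (-0.31, adjusted p = 0.0342). Without WT untreated replicate 1 the count was 5. For the IL-4 response 0 members differed in limma, where 0.007% of all genes were called; 2 members had an unadjusted p under 0.05, and edgeR and DESeq2 called 0. Other measures moved with the genotype. The summed level of 9 immediate early genes, which rise when cells are handled or stimulated, ran from 22939 to 25466 normalized counts in KO and from 39776 to 61048 in WT with IFN-gamma, all 9 being present. With IL-4 it ran from 22092 to 23479 in KO and from 21652 to 27374 in WT, and untreated from 16853 to 17658 in KO and from 15424 to 16203 in WT. Of these 9 genes 7 were called lower in KO under IFN-gamma. The summed level of the fibroblast and stromal markers (10 of 11 in the table) ran from 293 to 1004 in KO and 162 to 327 in WT with IFN-gamma. With IL-4 it ran from 516 to 1577 in KO and 236 to 891 in WT, and untreated from 473 to 1632 in KO and 206 to 515 in WT. None of these 10 markers was at 0 throughout a group. The 8 macrophage markers summed to 211457 to 227268 in KO and 251295 to 278376 in WT with IFN-gamma, and to 194241 to 214288 in KO and 238374 to 260863 in WT with IL-4, with no overlap of the genotypes. Untreated their sums overlapped, at 243029 to 271388 in KO and 252038 to 264280 in WT. Of these 8, 3 were higher and 3 lower in KO under IFN-gamma, and 4 were lower with IL-4. The osteoclast markers (4 of 5 in the table) summed higher in KO without overlap in each treatment, at 1050 to 1415 in KO and 363 to 395 in WT with IFN-gamma, 3938 to 4896 in KO and 2334 to 3303 in WT with IL-4, and 1161 to 1336 in KO and 788 to 1092 in WT untreated. All 4 were called higher in KO under IFN-gamma, their differences with IL-4 and untreated did not pass, and Ocstamp was at 0 in untreated KO. The dendritic cell markers (3 of 5) summed to 379 to 516 in KO and 741 to 1003.5 in WT with IFN-gamma, 102 to 124 in KO and 21.9 to 47.0 in WT with IL-4, and 10.6 to 24.3 in KO and 3.90 to 6.59 in WT untreated, again with no overlap. Of these 3, 1 was called higher and 1 lower in KO under IFN-gamma, and 1 was called higher with IL-4. The neutrophil and progenitor markers (3 of 8) summed to 31.2 to 65.2 in KO and 2.25 to 4.72 in WT with IFN-gamma and to at most 25.3 in any other library, with Camp at 0 in WT with IL-4. The part of any of these lists in the differences between genotypes was not tested.

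**Figure D5:**
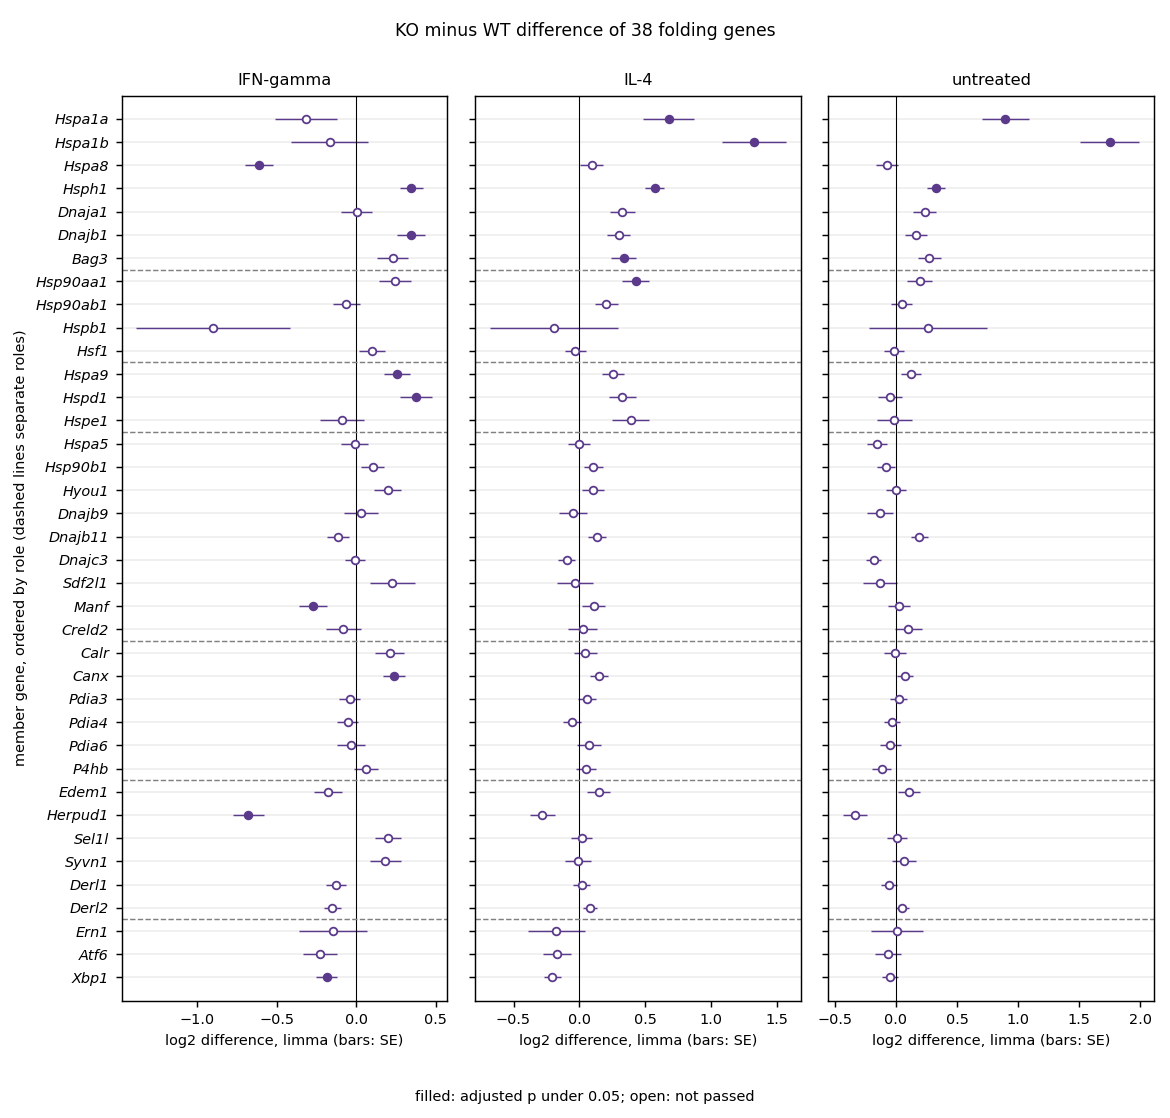
Log2 difference of KO minus WT for each of the 38 genes with IFN-gamma (left), with IL-4 (middle) and untreated (right), with limma standard errors as bars and filled points for adjusted p under 0.05. Hspa1b lies at 1.32 with IL-4 and 1.75 untreated but at -0.17 with IFN-gamma, and most other members lie near 0.

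Genes of the same pathways outside the 38 moved as follows. Of all genes tested, 28.3% rose and 27.5% fell with IFN-gamma in KO (55.8% in all). In WT 31.4% rose and 31.1% fell with IFN-gamma (62.4% in all). With IL-4 15.8% rose and 14.5% fell in KO (30.2% in all), and 16.3% rose and 14.0% fell in WT (30.3% in all). These shares stand beside each list of this kind. Genes listed for the PERK arm, which couples ER stress to the transcription factor ATF4, mostly rose with both cytokines. Of 12 genes, 10 rose with IFN-gamma in KO and in WT, and 7 in KO and 8 in WT with IL-4. Their transcript levels do not show whether PERK was active, which was not tested. Under library totals the counts were 9 higher and 1 lower in KO and 10 higher and 2 lower in WT with IFN-gamma, and 5 higher and 1 lower in KO and 6 higher and 1 lower in WT with IL-4. Atf4 itself had means of 14617 normalized counts with IFN-gamma against 4905 untreated in KO, and 10105 against 4013 in WT. The change was 1.58 (SE 0.0836, adjusted p = 2.98e-11) in KO and 1.33 (SE 0.0836, adjusted p = 2.35e-10) in WT. Ddit3 (CHOP, a target of ATF4) rose by 2.38 (SE 0.128, adjusted p = 3.52e-11) in KO and 2.07 (SE 0.128, adjusted p = 1.87e-10) in WT with IFN-gamma. Between the genotypes, 3 of the 12 were higher and 1 lower in KO under IFN-gamma (14.3% and 13.6% of all genes). With IL-4 2 were higher and 0 lower (3.46% and 3.13% of all genes). Atf4 was higher in KO than in WT by 0.54 (SE 0.0836, adjusted p = 0.000165) under IFN-gamma and by 0.50 (SE 0.0836, adjusted p = 0.00165) with IL-4. Nupr1 was lower in KO under IFN-gamma, at -0.73 (SE 0.218, adjusted p = 0.0196). Of 50 other XBP1 and ATF6 targets and ER translocation genes, 30 rose in KO and 29 rose and 2 fell in WT with IL-4, led by Rpn1, a subunit of the oligosaccharyltransferase. Rpn1 changed by 0.93 (SE 0.0718, adjusted p = 2.53e-08) in KO and 0.93 (SE 0.0718, adjusted p = 3.18e-08) in WT. With IFN-gamma 18 rose and 8 fell in KO and 25 rose and 10 fell in WT, in all a share not far from that of all genes. These counts turned to 3 higher and 27 lower in KO and 8 higher and 21 lower in WT under library totals. With IL-4 the split stayed on the higher side, at 19 higher and 2 lower in KO and 15 higher and 3 lower in WT. Sec23b, a COPII coat subunit, rose with IFN-gamma by 0.69 (SE 0.0626, adjusted p = 3.87e-08) in KO and 0.95 (SE 0.0626, adjusted p = 4.02e-10) in WT.

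Of 22 other HSF1 targets and cytosolic co-chaperones, 11 rose and 2 fell in KO and 15 rose and 1 fell in WT with IFN-gamma, and 3 rose and 8 fell in KO and 7 rose and 4 fell in WT under library totals. Ubb, which encodes polyubiquitin, led and changed by 1.30 (SE 0.0635, adjusted p = 1.02e-11) in KO and 1.33 (SE 0.0635, adjusted p = 5.89e-12) in WT. Under IFN-gamma 1 of the 22 was higher and 6 were lower in KO than in WT. Of all genes 14.3% were higher and 13.6% lower (27.9% in all). The share called in either direction is near that of all genes, while the calls in this list lay mostly on the lower side. Among the lower ones was Dnaja2, a J-domain partner of HSP70. Dnaja2 differed by -0.35 (SE 0.0653, adjusted p = 0.000869). With IL-4, 7 rose in KO and 6 rose and 2 fell in WT, which became 4 higher and 3 lower in both under library totals. Of the 8 subunits of the cytosolic chaperonin CCT, 3 fell with IFN-gamma in each genotype and 1 rose in WT, while 4 in KO and 3 in WT rose with IL-4. Under library totals 7 in KO and 6 in WT fell with IFN-gamma, and with IL-4 1 rose in KO and 2 fell in WT. Cct4 changed by -0.47 (SE 0.0804, adjusted p = 8.11e-05) in KO and -0.61 (SE 0.0804, adjusted p = 3.59e-06) in WT with IFN-gamma. Cct7 changed by 0.42 (SE 0.0775, adjusted p = 0.000448) in KO and 0.32 (SE 0.0775, adjusted p = 0.00435) in WT with IL-4. Of 10 other mitochondrial folding and protease genes, 7 in KO and 6 in WT rose with IFN-gamma and 6 in each with IL-4. Under library totals 1 was lower in each genotype with IFN-gamma and the others did not pass, and 3 were higher and 1 lower in KO and 4 higher and 2 lower in WT with IL-4. The protease gene Lonp1 rose by 0.57 (SE 0.0939, adjusted p = 5.50e-05) in KO and 0.43 (SE 0.0939, adjusted p = 0.000718) in WT with IFN-gamma. Grpel1, the exchange factor of mitochondrial HSP70, rose by 0.67 (SE 0.0881, adjusted p = 1.42e-05) in KO and 0.69 (SE 0.0881, adjusted p = 1.12e-05) in WT with IL-4. Of 8 other transducers of the unfolded protein response, 5 rose and 2 fell with IFN-gamma in each genotype (3 and 3 under library totals), led by Traf2, an adaptor of IRE1. Traf2 changed by 1.74 (SE 0.092, adjusted p = 2.75e-11) in KO and 1.72 (SE 0.092, adjusted p = 2.77e-11) in WT.

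Per kilobase of annotated exons, averaged over the 6 groups, the most abundant members were Hsp90ab1 with a level of 13306 normalized counts per kilobase, Calr with 10086, Hspa5 with 8144, Hspa8 with 7747, P4hb with 6424 and Pdia3 with 6183. Hspa1b with 188, Hspa1a with 124, Hsf1 with 120.3 and Hspb1 with 7.48 were at the other end, so by these counts the genes with the largest changes are among the least abundant. Reads that match both Hspa1a and Hspa1b may be left out of the counts, so the levels of this pair are uncertain and may be too low. In 13 members the annotation places another gene on the opposite strand, among them Hspd1 and Hspe1 with each other, Pdia6 with Atp6v1c2, Pdia3 with Catsper2, Syvn1 with Mrpl49 and Hspa1a with Gm20481. Since no source used here states the strand setting of the counting, their counts are uncertain to that extent.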

How the data were processed

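Poly(A)-selected RNA of 18 libraries was sequenced with a directional kit, per the labels' protocols. Reads were aligned with STAR 2.5 to GRCm38 and counted with HTSeq 0.6, per the submitters' processing notes; no source used here states the strand setting. The deposited signal values are normalized counts, which the authors made by dividing each library by 1 size factor. Whole reads were recovered from the step between low values, for 100% of values (tolerance 0.1). Of 21428 rows and 21380 identifiers, 34 identifiers occurred more than once and were used once. The authors' group and comparison columns were not used.

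Log2(normalized count + 1) of the 14288 genes with at least 10 normalized counts in at least 3 libraries entered a linear model in limma 3.58.1 (R 4.3.3; trend, 6 group means, two-sided moderated tests, Benjamini-Hochberg over all genes). The alternatives used edgeR 4.0.16 and DESeq2 1.42.0 on the recovered reads. The fit was tested on simulated data. The members, lists and tests were chosen with earlier results of these data known. Full values are given for members called, up to 6 in each direction by adjusted p in each comparison of groups, for members called in a difference of responses, and for Hspa5, Xbp1, Hsf1, Hspa1a, Hspa1b and Hspa8. Genes named from other lists are among the 3 called ones with the smallest adjusted p.

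Animal codes in the labels recur in each treatment, so libraries pair by animal across treatments: after subtraction of group means, the 18 such pairs correlated across genes at 0.00363 to 0.243 (median 0.174). Positions are those of the table; all 38 match GENCODE M21. Promoter sequences are RefSeq's (GRCm38.p6).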

Additional observations from a re-analysis of the deposited data

Results flagged for a closer look

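In 3 members the response to IFN-gamma differed between the genotypes by a test of the difference itself (KO change minus WT change, log2 scale, limma), 3 of 38 against 9.15% of all genes tested, a share below that of all genes. The difference was -1.91 for Hspa1b, -1.21 for Hspa1a and -0.54 for Hspa8. Each animal against its own untreated library gave Hspa1b ratios of 4.39, 7.77 and 4.76 in KO and 26.5, 20.8 and 16.4 in WT, so the genotypes did not overlap in that measure. The reads of Hspa1a and Hspa1b can be exchanged, and their sum gave -1.58.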

How the results depend on the processing

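Of 79 results for single genes under the alternatives, 2153 of 2227 values kept their direction and side of the threshold, 74 kept their direction but no longer passed, and in 0 did the direction reverse. Many alternatives, such as leaving out a library of a group not compared, leave the log2 change itself unaltered. The results are also called ones with the smallest adjusted p, so the 0 is no check of direction. Over all 38 members, library totals turned the sign of 8 called changes with IFN-gamma in KO and 3 in WT, and the calls they ended are named beside the results. Counts of members called moved by more than 1.5 times as follows. For KO against WT untreated (3), fitting only the groups compared gave 5. For KO against WT with IFN-gamma (9), it gave 5. For KO against WT with IL-4 (5), it gave 1, no filter on low values gave 3, library totals gave 10 and DESeq2 gave 9. For the difference of IFN-gamma responses (3), only the groups compared, DESeq2 and the block by animal each gave 5. Leaving out 1 library gave 1 to 4 members untreated, 4 to 10 with IFN-gamma, 2 to 10 with IL-4 and 3 to 5 for the difference of IFN-gamma responses; the counts of responses ran from 25 to 31 (IFN-gamma, KO), 29 to 32 (IFN-gamma, WT), 26 to 29 (IL-4, KO) and 21 to 27 (IL-4, WT). The cause was not tested.

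With the block by animal, members called were 31 in both IFN-gamma responses, 28 and 27 in the KO and WT IL-4 responses, and 26 and 29 for IFN-gamma against IL-4. The replicate number joins different animals between KO and WT, whose 9 pairs correlated at -0.212 to 0.104; as a block it gave 8 members with IFN-gamma (without Xbp1, limma adjusted p = 0.052), 7 with IL-4 and 3 untreated. The block changed no other call of a named result than those given here and beside the results.

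Over all genes, KO against WT untreated called 283 genes by limma, 608 by DESeq2, 971 with only the groups compared and 124 to 388 without 1 library. With IL-4 it called 941, 128 with only the groups compared and 497 to 1287 without 1 library. The difference of IFN-gamma responses called 1307, 2073 with the block and 760 to 1588 without 1 library; that of IL-4 responses called 1, 21 by DESeq2, 12 with the block, 3 with a pseudocount of 5 and 1 to 3 without 1 library. On the recovered reads edgeR called 8172 genes (IFN-gamma, KO), 9125 (IFN-gamma, WT), 4611 (IL-4, KO) and 4347 (IL-4, WT). Depth limited Hspb1, whose group means were 4.03 to 18.5 normalized counts.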
